A study of Mus musculus with 8 samples.

Results

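The cell division programme of the testis was described through 40 genes chosen by name: 9 genes of DNA replication, 9 cyclins, kinases and a phosphatase of the G1/S transition, 17 genes of M phase, 3 germ cell cyclin and Aurora paralogs, and 2 inhibitors of cyclin-dependent kinases (CDK). All 40 are rows of the deposited table of 17127 genes and all 40 passed the expression minimum, so each was tested. The study asked how a mutation of Iqch, a gene encoding an IQ motif protein of the testis, changes gene expression in that organ. RNA was sequenced from whole adult testes of wild-type (WT) and Iqch-/- mice aged 4 months, with 1 library per mouse. The mutant mice were homozygous for small deletions in Iqch made with CRISPR-Cas9 in B6CBAF1 zygotes, and the study's description of its RNA-seq coverage names the line mu7, while the labels give only the genotype. Wild types 1 to 4 were set against mutants 1, 2 and 4, in which order values are given below, and mutant 3 is not analysed here.

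In a dividing cell, D-type cyclins with Cdk4 or Cdk6 phosphorylate the retinoblastoma (RB) protein, which releases E2F transcription factors, and E-type cyclins with Cdk2 carry the cell into S phase. Replication then needs the MCM helicase, the sliding clamp PCNA and a supply of deoxynucleotides from ribonucleotide reductase. A-type and B-type cyclins with Cdk1, together with Polo and Aurora kinases, drive chromosome segregation, and the spindle checkpoint holds it back until the chromosomes are attached. In the testis, spermatogonia divide by mitosis, preleptotene spermatocytes pass through a last S phase, and later spermatocytes undergo the meiotic divisions with the help of germ cell paralogs such as Ccna1. Spermatids and mature Sertoli cells do not divide.

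Each library's CPM (counts per 1000000 reads on the genes of the table) were whole multiples of a step, and with that step taken as 1 read the libraries held 32064384 to 37551057 reads. Every member had at least 51 reads in every library. Iqch itself, the targeted gene, was at 217, 206, 216 and 193 CPM in WT and 67.7, 64.8 and 69.2 CPM in mutants, a log2 fold change of -1.63 (SE 0.050, limma FDR 1.92e-10), with no overlap (SE is the standard error). Over all tested genes the median log2 fold change (mutant against wild type, on log2(CPM + 0.1)) was 0.12 on the deposited CPM and -0.013 after division by median-of-ratios size factors. The members were therefore read under both scalings, and a change is called at a limma FDR below 0.01. On the deposited CPM 50.4% of the tested genes were called, 36.3% higher and 14.2% lower, and after size factors 52.1% were called, 27.0% higher and 25.1% lower. In 62.3% of the tested genes the groups did not overlap on the deposited CPM, meaning that every mutant library lay on the same side of every wild-type library. Overlap below is on the deposited CPM unless size factors are named.

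Markers of the cell types in the testis moved with genotype. Their summed level ran from 1282 to 1383 CPM in wild-type and from 2618 to 2757 CPM in mutant libraries for Sertoli cells (7 of 7 markers called higher), and from 997 to 1202 against 4214 to 4393 CPM for Leydig cells (5 of 6 higher). For spermatogonia it was 173 to 187 against 232 to 263 CPM (5 of 10 higher on the deposited CPM, 1 of 10 after size factors). Spermatid markers summed to 22252 to 23567 CPM in wild-type and 14352 to 16416 CPM in mutant testes (9 of 10 lower), while spermatocyte markers overlapped, at 901 to 941 against 852 to 934 CPM (1 of 8 higher, and 3 of 8 lower after size factors). Macrophage markers were higher in 6 of 6 cases (57.0 to 63.2 against 140.0 to 159.9 CPM), endothelial markers in 2 of 4 (26.5 to 30.5 against 40.7 to 42.5 CPM) and peritubular myoid markers in 1 of 4 (66.2 to 90.1 against 76.5 to 101.7 CPM). The endothelial markers were mixed: 1 of the 4 was lower in every mutant (log2 fold change -0.21) and was called lower after size factors. No tested marker was at 0 in any library.

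Of the 40 members, 5 were called higher and 7 lower in mutant testes on the deposited CPM, and 28 were not called. The shares of all tested genes were 50.4% called, 36.3% higher and 14.2% lower. The 5 higher members were Cdk4, Ccnd1, Ccne1, Mcm6 and Cdc25b, and the 7 lower members were Rrm1, Mcm7, Aurka, Plk1, Cdc20, Bub1b and Ccna1. After size factors 3 were higher and 15 lower, against 27.0% and 25.1% of all tested genes. The same 10 genes were called in the same direction by both scalings: Cdk4, Mcm6 and Cdc25b higher, and the 7 lower genes named above. The median log2 fold change of the members was 0.0017 on the deposited CPM and -0.13 after size factors, in each case below the median of all genes. The groups did not overlap in 18 members, 9 higher and 9 lower, against 62.3% of all genes. Changes were small: the log2 fold change passed 0.5 in either direction in 2 members (Cdc25b and Cdk4), against 28.8% of tested genes. In whole testis, fewer cells of a type and less RNA per cell cannot be told apart, and this holds for every value below.

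**Figure D1:**
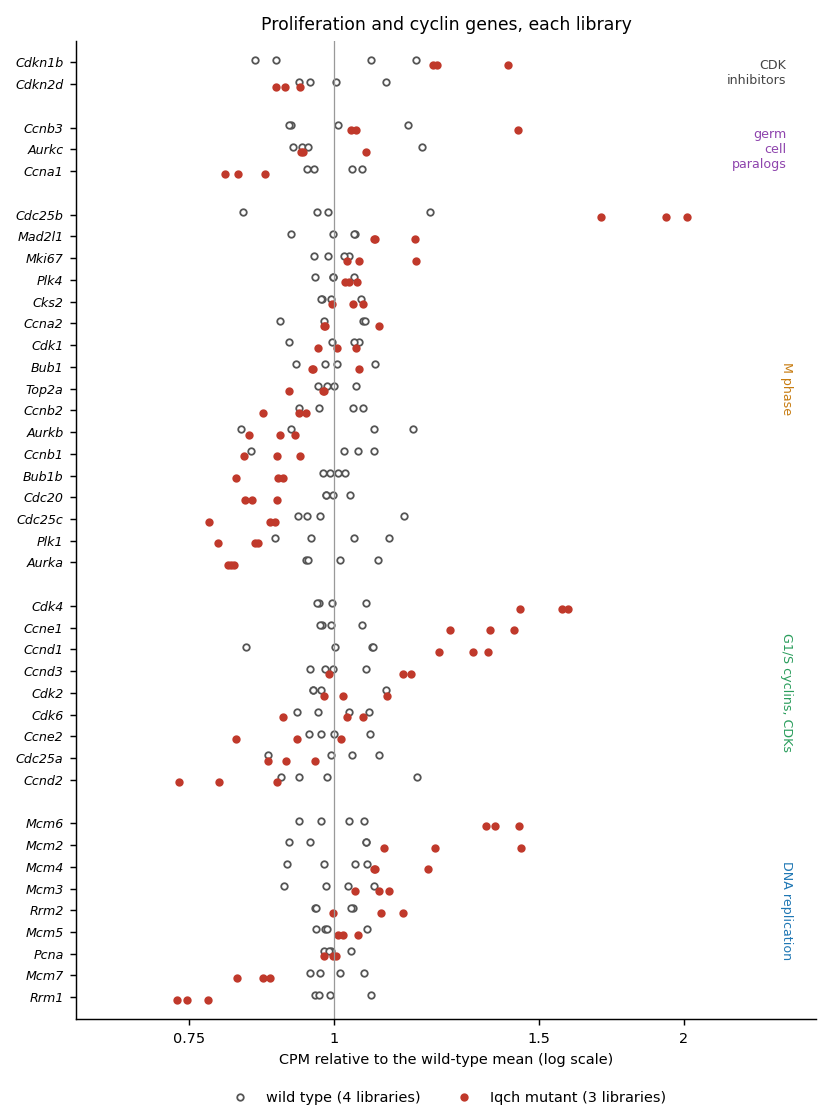
CPM of each of the 40 members in each library, divided by the wild-type mean of that gene, on a log axis. Open circles are the 4 wild-type libraries and filled circles the 3 mutant libraries. Cdc25b and Cdk4 lie farthest to the right and Rrm1 and Ccnd2 farthest to the left, while most M phase genes overlap between genotypes.

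**Figure D2:**
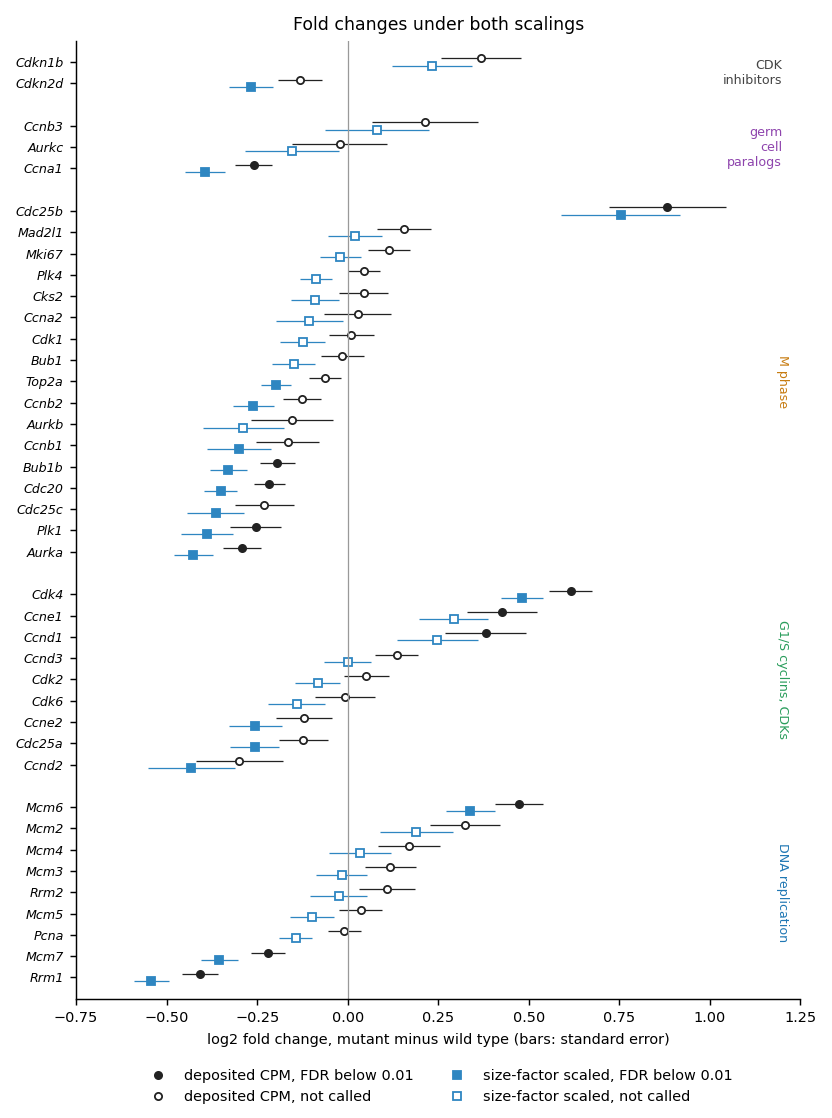
Log2 fold change of each member (mutant against wild type) with its standard error, from limma on the deposited CPM (circles) and after size factors (squares). Filled symbols have an FDR below 0.01. Scaling shifts every gene to the left by a similar amount, so that 8 members become called lower and Ccnd1 and Ccne1 are no longer called.

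Of the 9 DNA replication members, Mcm6 was called higher, Mcm7 and Rrm1 were called lower and 6 were not called, under both scalings (median log2 fold change 0.11 on the deposited CPM and -0.025 after size factors). Among all tested genes 36.3% were called higher and 14.2% lower on the deposited CPM, so these counts are read gene by gene and not as a change of the group. Mcm6 (chr1:128259311-128287516, minus strand, GRCm39) encodes a subunit of the MCM2 to MCM7 ring, the replicative helicase, and was at 19.4, 18.3, 17.5 and 19.9 CPM in WT and 25.8, 25.4 and 27.1 CPM in mutants. All mutant libraries lay above all wild-type libraries, and the log2 fold change was 0.47 (SE 0.067, limma FDR 5.22e-05), or 0.34 (limma FDR 7.02e-04) after size factors. Mcm7 (chr5:138162844-138170684, minus strand), another subunit of the same ring, was at 149, 142, 137 and 134 CPM in WT and 124, 116 and 122 CPM in mutants. Here the mutants were all below the wild types, with a log2 fold change of -0.22 (SE 0.048, limma FDR 0.00148) and of -0.35 (limma FDR 5.87e-05) after size factors. Of its annotated exon bases, 15.4% are shared with Ap4m1, Cops6 and the microRNA genes Mir25 and Mir93.

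The other 4 MCM subunits were not called. Mcm2 came closest, at 15.6, 15.6, 13.4 and 13.9 CPM in WT and 21.1, 17.8 and 16.1 CPM in mutants, with no overlap and a log2 fold change of 0.32 (limma FDR 0.0114). Without mutant 4 it was called higher, at 0.41 (limma FDR 0.0043). Without mutant 1 it was 0.22 (limma FDR 0.0672) and after size factors 0.19 (limma FDR 0.116), neither of them a call. Mcm4 did not overlap either, with 11.8, 11.5, 10.1 and 10.8 CPM in WT and 11.98, 12.01 and 13.3 CPM in mutants, but its log2 fold change of 0.17 (limma FDR 0.106) did not reach the threshold. Mcm3 lay at 25.97, 23.7, 21.7 and 24.7 CPM in WT and 26.8, 26.3 and 25.002 CPM in mutants and Mcm5 at 29.5, 27.2, 26.7 and 27.3 CPM in WT and 29.02, 28.2 and 27.9 CPM in mutants. Both overlapped between genotypes, and the sign of their log2 fold change turned with the scaling, from 0.12 to -0.017 for Mcm3 and from 0.036 to -0.099 for Mcm5.

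The subunits work in equal numbers in the helicase, yet their transcripts were far from equal in these testes. Per kilobase of annotated exon, the wild-type mean level was 25.04 CPM for Mcm7, against 1.84 for Mcm2, 3.83 for Mcm3, 2.07 for Mcm4, 4.05 for Mcm5 and 3.46 for Mcm6. The length, here and below, counts every annotated exon base of a gene, which can exceed the transcript in use, so levels of different genes compare only roughly. The ratio of Mcm7 to Mcm6 per kilobase was 7.46, 7.52, 7.55 and 6.51 in wild-type and 4.64, 4.43 and 4.37 in mutant testes. Every mutant ratio was thus below every wild-type ratio. This pair was chosen after the values were seen, so its ratio is a description with no test.

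Ribonucleotide reductase makes deoxynucleotides from a large subunit, Rrm1, and a small subunit, Rrm2 in S phase. Rrm1 (chr7:102090890-102119709, plus strand) was at 101, 104, 113 and 102 CPM in WT and 76.7, 81.5 and 78.3 CPM in mutants, the largest decrease among the members on the deposited CPM, with a log2 fold change of -0.41 (SE 0.050, limma FDR 1.57e-05) and of -0.54 (limma FDR 1.22e-06) after size factors. The groups were well apart, with the lowest wild-type library above the highest mutant library. Rrm2 was at 14.4, 13.4, 14.4 and 13.4 CPM in WT and 15.9, 13.8 and 15.2 CPM in mutants and overlapped, with a log2 fold change of 0.11 (limma FDR 0.235) on the deposited CPM and of -0.025 (limma FDR 0.792) after size factors. Rrm2 shares 43.3% of its exon bases with another annotated gene on the opposite strand, and the strand setting of the counting is not given in the sources used here. Pcna, the clamp that holds DNA polymerases on their template, overlapped, at 60.7, 58.3, 57.5 and 58.1 CPM in WT and 57.5, 58.9 and 58.5 CPM in mutants, a log2 fold change of -0.0089 (limma FDR 0.877). After size factors every mutant lay below every wild type, and the log2 fold change of -0.14 (limma FDR 0.0146) was not called.

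**Figure D3:**
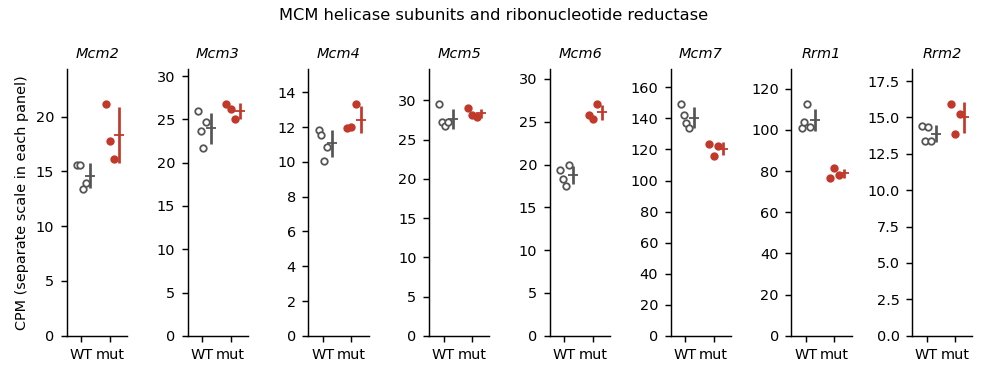
CPM of the MCM subunits and of both ribonucleotide reductase genes in each library (open circles, 4 wild-type; filled circles, 3 mutant), with the mean and SD at the right of each group and a separate axis from 0 for each gene. Mcm6 is higher in all mutants, Mcm7 and Rrm1 are lower in all mutants, and Mcm3, Mcm5 and Rrm2 overlap.

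Genes of the same steps outside the 40 were also called in both directions. In a list of 44 other replication genes (origin recognition, polymerases, clamp loaders, GINS and nucleotide supply), 14 were called higher and 4 lower on the deposited CPM, and 5 higher and 9 lower after size factors (median log2 fold change 0.096 and -0.037). All tested genes were called higher in 36.3% and lower in 14.2% of cases on the deposited CPM, and in 27.0% and 25.1% after size factors, and the counts of the list do not stand above these shares on the deposited CPM. The 3 largest called increases were in nucleotide supply. Rrm2b, the small reductase subunit used outside S phase and after DNA damage, was at 4.25, 4.78, 3.62 and 4.05 CPM in WT and 7.50, 9.86 and 8.45 CPM in mutants, a log2 fold change of 1.02 (limma FDR 1.86e-05). Tk1, thymidine kinase, rose by 0.62 (limma FDR 6.11e-04) and Tyms, thymidylate synthase, by 0.61 (limma FDR 0.00707). Tyms was not called after size factors, at 0.48 (limma FDR 0.0227). The largest decrease was in Fen1, the nuclease that trims Okazaki fragments, at 12.5, 11.8, 11.9 and 14.1 CPM in WT and 7.30, 7.77 and 8.85 CPM in mutants, a log2 fold change of -0.65 (limma FDR 8.19e-05). Gins4, of the helicase complex, and Rpa1, the large subunit of the single-strand binding protein, followed with -0.29 (limma FDR 0.002) and -0.20 (limma FDR 0.00157). Leaving out 1 library at a time left 8 to 12 genes called higher, with 9 without wild type 1, 8 without mutant 2 and 9 without mutant 4, and 2 to 4 called lower, with 2 without mutant 4.

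Promoters show what the members share apart from their expression. RefSeq promoters (GRCm38.p6) were matched for 33 of the 40 members, and the 250 bases before each start site were searched on both strands for 3 short motifs: TTCCCGC or TTGGCGC (forms of the E2F site), CCAAT (the NF-Y box) and TTTGAA (the cell cycle homology region, CHR). An E2F form was found in 10 of 33 members (30.3%), against 6.45% of 27025 genes in the promoter table. CCAAT was found in 26 of 33 (78.8%, against 37.5%) and TTTGAA in 6 of 33 (18.2%, against 18.3%). By group, the E2F forms were in 4 of 8 replication, 2 of 6 G1/S and 4 of 14 M phase promoters, CCAAT was in 8 of 8, 3 of 6 and 12 of 14, and TTTGAA was in 1 of 8, 0 of 6 and 5 of 14. Of the 3 germ cell paralogs 1 had CCAAT, of the 2 inhibitors both had it, and neither group had another match. A match is a description of letters, not of binding. TTGGCGC and the reverse of CCAAT can overlap, and in the promoters printed below none did. The promoters below are those of Mcm6 and Mcm7, subunits of one complex whose RNA moved in opposite directions, of Cdk4, the most raised G1/S gene, of Cdc20, an M phase gene called lower, and of Ccna1, the germ cell cyclin called lower. Capitals mark the motif letters, with ATTGG and GCGGGAA as the reverse of CCAAT and TTCCCGC, and each sequence runs 5′ to 3′ up to the last base before the start site.
Mcm6 promoter (chr1:128359706-128359955, minus strand): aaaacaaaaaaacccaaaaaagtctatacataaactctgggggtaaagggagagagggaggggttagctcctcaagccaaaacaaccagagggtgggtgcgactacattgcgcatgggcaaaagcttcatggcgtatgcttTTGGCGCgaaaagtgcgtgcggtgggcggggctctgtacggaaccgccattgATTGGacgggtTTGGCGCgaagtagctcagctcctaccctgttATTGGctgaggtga
Mcm7 promoter (chr5:138171884-138172133, minus strand): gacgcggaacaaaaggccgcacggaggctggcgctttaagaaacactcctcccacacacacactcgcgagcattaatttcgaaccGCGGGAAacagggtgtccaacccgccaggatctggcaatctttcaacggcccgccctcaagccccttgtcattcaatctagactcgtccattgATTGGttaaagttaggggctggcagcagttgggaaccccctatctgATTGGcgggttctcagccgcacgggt
Cdk4 promoter (chr10:127063285-127063534, plus strand): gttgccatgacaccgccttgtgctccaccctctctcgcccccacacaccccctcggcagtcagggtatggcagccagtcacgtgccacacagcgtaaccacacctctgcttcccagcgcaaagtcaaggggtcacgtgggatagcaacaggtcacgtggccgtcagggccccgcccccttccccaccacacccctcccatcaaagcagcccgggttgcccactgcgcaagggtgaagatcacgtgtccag
Cdc20 promoter (chr4:118437344-118437593, minus strand): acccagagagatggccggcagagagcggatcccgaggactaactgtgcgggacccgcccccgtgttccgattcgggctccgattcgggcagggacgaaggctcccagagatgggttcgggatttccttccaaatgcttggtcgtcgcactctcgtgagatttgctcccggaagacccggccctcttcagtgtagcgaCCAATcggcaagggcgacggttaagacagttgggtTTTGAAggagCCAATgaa
Ccna1 promoter (chr3:55055056-55055305, minus strand): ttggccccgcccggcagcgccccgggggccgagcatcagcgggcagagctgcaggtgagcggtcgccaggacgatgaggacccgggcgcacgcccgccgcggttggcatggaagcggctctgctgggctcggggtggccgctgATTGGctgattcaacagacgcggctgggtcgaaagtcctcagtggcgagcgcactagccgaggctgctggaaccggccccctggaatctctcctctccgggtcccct

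The Mcm6 window held 2 E2F forms and 2 CCAAT boxes, and the Mcm7 window held 1 and 2. Any part of these letters in the changes of the 2 genes was not tested. A second Mcm7 promoter in RefSeq, not printed, also held an E2F form and a CCAAT box. No motif letters were found in the Cdk4 window. Cdc20 had 2 CCAAT boxes with TTTGAA between them, an arrangement close to its start site, and Ccna1 had a single CCAAT box.

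Cdk4 carried the largest increase among the genes of the G1/S transition. Of 9 members, Cdk4, Ccne1 and Ccnd1 were called higher and none lower on the deposited CPM, with the 3 higher calls near the 36.3% of all tested genes. After size factors Cdk4 alone remained higher, and Ccnd2, Ccne2 and Cdc25a were called lower (median log2 fold change 0.051 and -0.083, against 27.0% of all genes higher and 25.1% lower). Cdk4 (chr10:126895180-126903789, plus strand, GRCm39), the kinase partner of D-type cyclins, was at 31.8, 28.95, 28.8 and 29.7 CPM in WT and 43.1, 46.8 and 47.4 CPM in mutants. The lowest mutant was well above the highest wild type, with a log2 fold change of 0.62 (SE 0.059, limma FDR 1.86e-06) and of 0.48 (limma FDR 1.23e-05) after size factors. It was called higher without each library in turn, from 0.59 to 0.66. Cdk4 shares 18.8% of its exon bases with Tspan31 on the opposite strand. Cdk6, the related kinase, overlapped at 14.002, 16.1, 14.6 and 15.5 CPM in WT and 13.6, 15.4 and 15.9 CPM in mutants, a log2 fold change of -0.0069 (limma FDR 0.948).

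The 3 D-type cyclins differed in level and in direction. Ccnd1 was low, at 6.49, 6.03, 6.51 and 5.06 CPM in WT and 7.93, 7.42 and 8.17 CPM in mutants, with no overlap and a log2 fold change of 0.38 (SE 0.11, limma FDR 0.00964). That call was at the edge of the threshold, since it was lost on leaving out any 1 of wild types 1, 2 and 4 or mutants 1, 2 and 4, with limma FDR from 0.0103 to 0.0385, and after size factors, at 0.25 (limma FDR 0.068). Of its exon bases 48.4% overlap another gene. Ccnd2 was at 6.43, 8.13, 6.21 and 6.79 CPM in WT and 6.15, 5.49 and 5.07 CPM in mutants, with all mutants below all wild types. Its log2 fold change was -0.30 (limma FDR 0.0442) on the deposited CPM and -0.43 (limma FDR 0.00718) after size factors, which is a call only under the second. Ccnd3, the most abundant D-type cyclin per kilobase of exon (13.1 CPM in wild type, against 1.26 for Ccnd1 and 0.732 for Ccnd2), was at 129, 119, 115 and 121 CPM in WT and 141, 119.8 and 139 CPM in mutants. Mutant 2 overlapped the wild types, and the gene was called higher only when that library was left out (log2 fold change 0.21, limma FDR 0.00602). With it, the log2 fold change was 0.13 (limma FDR 0.0684) on the deposited CPM and 1.91e-05 (limma FDR 0.9998) after size factors.

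The E-type cyclins, which activate Cdk2, also differed from each other. Ccne1 was at 5.62, 6.09, 5.60 and 5.73 CPM in WT and 7.84, 8.23 and 7.25 CPM in mutants, higher in all mutants by 0.43 (SE 0.097, limma FDR 0.00199), though without a call after size factors at 0.29 (limma FDR 0.0174) and without mutant 2 at 0.38 (limma FDR 0.0119). Ccne2 overlapped, at 23.8, 25.05, 26.9 and 24.4 CPM in WT and 20.6, 25.4 and 23.3 CPM in mutants, with -0.12 (limma FDR 0.194) on the deposited CPM and -0.25 (limma FDR 0.00836) after size factors. Cdk2 itself was at 71.1, 69.9, 69.96 and 80.8 CPM in WT and 74.2, 81.02 and 71.5 CPM in mutants, with wild type 4 and mutant 2 above the rest and no separation of the genotypes (log2 fold change 0.051, limma FDR 0.495). Its log2 fold change turned to -0.083 after size factors, still without a call. Cdc25a, the phosphatase that removes inhibitory phosphates from Cdk2, was at 103, 98.7, 109 and 87.1 CPM in WT and 87.1, 90.3 and 95.6 CPM in mutants. The groups overlapped, and the log2 fold change of -0.12 (limma FDR 0.133) became a call after size factors, at -0.26 (limma FDR 0.00465), and when wild type 4 was left out, at -0.18 (limma FDR 0.00947).

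Markers of several cell types were higher in the mutants, as were the 3 of 9 G1/S members called higher on the deposited CPM. That count is near the 36.3% of all tested genes called higher. The summed spermatogonial markers (173 to 187 against 232 to 263 CPM), Sertoli markers (1282 to 1383 against 2618 to 2757 CPM) and Leydig markers (997 to 1202 against 4214 to 4393 CPM) did not overlap between genotypes and were higher in the mutants, as were Cdk4, Ccnd1 and Ccne1. The other 6 G1/S members were not called on the deposited CPM. Of the 9, 4 had a negative log2 fold change, and Ccnd2 was lower in every mutant. Macrophage and endothelial sums were also higher without overlap, though 1 of the 4 endothelial markers was lower. Spermatid sums were lower, and spermatocyte and myoid sums overlapped. Of all tested genes 62.3% did not overlap. After size factors Ccnd1 and Ccne1 were not called, and 1 of 10 spermatogonial markers was called higher. The part of these cell types in the result was not tested.

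Inhibitors of CDKs and the RB and E2F genes around them were mixed. Cdkn1b, an inhibitor of cyclin E and cyclin A kinases, was at 15.5, 11.3, 14.2 and 11.7 CPM in WT and 16.1, 18.6 and 16.03 CPM in mutants. The mutants all lay above the wild types, but wild type 1 lay close to them, and the log2 fold change of 0.37 (SE 0.11, limma FDR 0.0116) was not called. Without wild type 1 it was 0.45 (limma FDR 0.00297), a call. Without mutant 2 it was 0.30 (limma FDR 0.0589) and after size factors 0.23 (limma FDR 0.0802), neither of them a call. Cdkn2d, an INK4 inhibitor of Cdk4 and Cdk6 found in spermatocytes, was at 58.8, 54.7, 55.9 and 64.9 CPM in WT and 52.2, 54.7 and 53.2 CPM in mutants. It overlapped and was not called on the deposited CPM, at -0.13 (limma FDR 0.0787), and was called lower after size factors, at -0.27 (limma FDR 0.00198).

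Among 20 other RB, E2F and CDK inhibitor genes, 6 were called higher and 4 lower on the deposited CPM, and 3 higher and 4 lower after size factors, against 36.3% and 14.2% of all tested genes on the deposited CPM and 27.0% and 25.1% after size factors. Tfdp2, the DNA-binding partner of E2F proteins, was at 25.2, 26.2, 28.9 and 26.1 CPM in WT and 45.9, 53.9 and 47.3 CPM in mutants, a log2 fold change of 0.88 (limma FDR 3.54e-07). E2f3, an activating E2F, and Cdkn1a, a CDK inhibitor induced by p53, rose by 0.65 (limma FDR 1.47e-04) and 0.52 (limma FDR 1.13e-04). These 3 were also the genes called higher after size factors. Cdkn1c, an inhibitor of the same family, was lower, at -0.41 (limma FDR 2.00e-04), and Skp2, a ubiquitin ligase subunit that marks Cdkn1b for destruction, and Cdkn2c, another INK4 inhibitor, were lower, at -0.22 (limma FDR 0.00179) and -0.22 (limma FDR 0.0023). Higher calls dropped to 3 without mutant 2 or without mutant 4, and lower calls to 2 without mutant 1 and to 1 without mutant 4.

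Of the 17 M phase members, Aurka, Plk1, Cdc20 and Bub1b were called lower, Cdc25b was called higher and 12 were not called on the deposited CPM. After size factors 8 were lower and 1 was higher, with a median log2 fold change of -0.063 before and -0.20 after. Among all tested genes 36.3% were higher and 14.2% lower on the deposited CPM, and 27.0% higher and 25.1% lower after size factors. The groups did not overlap in 7 of the 17, against 62.3% of all genes. Spermatid markers were lower in mutants, with sums of 22252 to 23567 CPM in wild-type and 14352 to 16416 CPM in mutant testes, and the spermatocyte markers given above overlapped. Their part in the result was not tested.

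The 4 lower genes act from spindle assembly to anaphase. Aurka (chr2:172198109-172212849, minus strand, GRCm39), the spindle pole kinase, was at 129.8, 130.4, 149.8 and 139 CPM in WT and 112, 112 and 111 CPM in mutants. The 3 mutants were nearly identical and all below the wild types, with a log2 fold change of -0.29 (SE 0.052, limma FDR 3.56e-04) and of -0.43 (limma FDR 1.91e-05) after size factors. Its exons share 38.6% of their bases with Cstf1, Fam210b and another gene on the other strand. Cdc20 (chr4:118290098-118294610, minus strand), which switches on the anaphase-promoting complex, was at 133, 129, 127 and 127 CPM in WT and 115, 109.6 and 108 CPM in mutants. No library overlapped, and the log2 fold change was -0.22 (SE 0.042, limma FDR 6.88e-04), or -0.35 (limma FDR 2.74e-05) after size factors. Bub1b, the checkpoint protein that restrains Cdc20, was at 74.2, 73.1, 76.4 and 75.3 CPM in WT and 67.5, 61.6 and 66.8 CPM in mutants, a log2 fold change of -0.20 (SE 0.048, limma FDR 0.00356). Plk1, a mitotic kinase, was at 81.7, 75.1, 87.7 and 69.9 CPM in WT and 67.2, 62.5 and 67.6 CPM in mutants, a log2 fold change of -0.25 (SE 0.070, limma FDR 0.00727). Both were separated, but neither was firm. Bub1b lost its call without mutant 2 (limma FDR 0.0223), and Plk1 lost its call without any 1 library other than wild type 4, with limma FDR from 0.0105 to 0.0366. Without mutant 2, only 2 M phase members were called lower.

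Cdc25b was the exception. This phosphatase, which starts Cdk1 activation, was at 1.53, 1.81, 1.77 and 2.21 CPM in WT and 3.68, 3.52 and 3.10 CPM in mutants, or 1.83 ± 0.284 CPM in WT (SD, n = 4) against 3.43 ± 0.298 CPM in mutants (SD, n = 3), and every mutant was above every wild type. The log2 fold change was 0.88 (SE 0.16, limma FDR 4.34e-04) and 0.75 (limma FDR 0.00138) after size factors, the largest among the 40 members. It was also the least abundant member, with 51 to 128 reads per library, and a minimum of 5 CPM removed it from the test. Its relative Cdc25c, which acts on the same kinase, lay on the other side, at 27.6, 32.6, 26.9 and 26.4 CPM in WT and 22.2, 25.3 and 25.002 CPM in mutants. The mutants did not overlap the wild types, and the log2 fold change of -0.23 (limma FDR 0.0256) was called lower only after size factors, at -0.36 (limma FDR 0.00122).

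The mitotic cyclins and their kinase were not called on the deposited CPM. Ccnb1 was at 23.3, 24.001, 22.6 and 18.8 CPM in WT and 20.7, 18.6 and 19.8 CPM in mutants and Ccnb2 at 144, 135, 147 and 129.5 CPM in WT and 129, 121 and 131 CPM in mutants. Both overlapped, with log2 fold changes of -0.17 (limma FDR 0.113) and -0.13 (limma FDR 0.0552), and both were called lower after size factors, at -0.30 (limma FDR 0.00928) and -0.26 (limma FDR 0.00127). Ccnb1 was also called when wild type 4 was left out (-0.24, limma FDR 0.00932). Cdk1, the kinase of both, was at 36.6, 34.7, 36.2 and 31.8 CPM in WT and 35.02, 36.4 and 33.8 CPM in mutants. Ccna2, the A-type cyclin among the M phase members, was at 10.1, 8.56, 9.34 and 10.1 CPM in WT and 9.34, 9.36 and 10.4 CPM in mutants. Neither was called under either scaling, with Cdk1 at 0.010 (limma FDR 0.897) and Ccna2 at 0.027 (limma FDR 0.811), and both turned negative after size factors, at -0.12 and -0.11. Cks2, a small CDK subunit needed in meiosis, was at 16.1, 16.1, 16.4 and 17.4 CPM in WT and 16.4, 17.5 and 17.1 CPM in mutants and overlapped (log2 fold change 0.044, limma FDR 0.587, and -0.090 after size factors).

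Broad markers of proliferation did not separate the genotypes on the deposited CPM. Mki67, a chromosome surface protein found in cycling cells, was at 49.6, 46.3, 49.1 and 47.5 CPM in WT and 50.6, 56.6 and 49.4 CPM in mutants, with mutant 2 highest and mutant 4 inside the wild-type range, a log2 fold change of 0.11 (limma FDR 0.104) that became -0.020 after size factors. Top2a, the topoisomerase that untangles chromosomes, was at 176, 181, 189 and 178 CPM in WT and 166, 177 and 177 CPM in mutants. It overlapped, at -0.063 (limma FDR 0.224), and was called lower after size factors, at -0.20 (limma FDR 0.00127). Plk4, the kinase of centriole duplication, was at 80.9, 80.9, 84.3 and 78.1 CPM in WT and 82.8, 83.4 and 84.8 CPM in mutants (log2 fold change 0.046, limma FDR 0.379, and -0.088 after size factors).

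The remaining checkpoint and Aurora genes were not called under either scaling. Bub1, a checkpoint kinase, was at 72.8, 71.1, 78.4 and 67.1 CPM in WT and 69.4, 69.2 and 75.99 CPM in mutants (log2 fold change -0.015, limma FDR 0.841). Mad2l1, the checkpoint protein that binds Cdc20, was at 14.96, 14.9, 13.2 and 14.3 CPM in WT and 15.5, 15.5 and 16.8 CPM in mutants, with all mutants above all wild types but a log2 fold change of only 0.16 (limma FDR 0.0909). Aurkb, the kinase of the chromosomal passenger complex, was at 10.5, 12.4, 9.53 and 13.4 CPM in WT and 10.6, 10.3 and 9.68 CPM in mutants (log2 fold change -0.15, limma FDR 0.25), with a wide spread among wild types.

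Other M phase genes were read in the same way. Of 38 such genes, 3 were called higher and 6 lower on the deposited CPM, and 1 higher and 19 lower after size factors (median log2 fold change -0.078 and -0.21). On the deposited CPM the 6 lower calls are near the 14.2% of all tested genes and the 3 higher calls are under their 36.3%, and after size factors the shares of all genes were 27.0% higher and 25.1% lower. The largest decreases were in Ncapg, a condensin subunit, with -0.31 (limma FDR 0.0032), in Pttg1, securin, with -0.25 (limma FDR 0.0018), and in Espl1, separase, with -0.21 (limma FDR 0.00226). Kif11, the motor that separates spindle poles, went up, at 37.8, 36.2, 38.5 and 38.7 CPM in WT and 52.5, 59.6 and 56.3 CPM in mutants, by 0.57 (limma FDR 2.52e-06). Spc25, of the kinetochore, and Ccnf, a ubiquitin ligase cyclin, rose by 0.34 (limma FDR 0.00147) and 0.27 (limma FDR 0.00352) on the deposited CPM and were not called after size factors. Without mutant 2, 3 of the 38 were called lower.

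Among the 3 germ cell paralogs, Ccna1 was called lower and Ccnb3 and Aurkc were not called, under both scalings. Of all tested genes 14.2% were called lower on the deposited CPM and 25.1% after size factors, so this is read gene by gene. Ccna1 (chr3:54952890-54963088, minus strand, GRCm39), the A-type cyclin that male germ cells need for meiotic division, was at 129, 119.9, 132 and 118 CPM in WT and 109, 101 and 103 CPM in mutants. The groups were apart, and the log2 fold change was -0.26 (SE 0.051, limma FDR 7.34e-04), or -0.39 (limma FDR 4.58e-05) after size factors. Leaving out each library kept it between -0.29 and -0.23. Ccnb3, a B-type cyclin of early meiotic prophase, was low and overlapped, at 3.74, 3.73, 4.11 and 4.71 CPM in WT and 4.25, 5.86 and 4.21 CPM in mutants, with mutant 2 above the rest (log2 fold change 0.21, limma FDR 0.222). Aurkc, the Aurora kinase of germ cells, was at 4.88, 3.84, 3.77 and 3.89 CPM in WT and 3.85, 4.37 and 3.84 CPM in mutants, a log2 fold change of -0.022 (limma FDR 0.897). Of 7 other germ cell cycle regulators tested, Proca1 was called lower, at 169, 181, 173 and 171 CPM in WT and 133, 132 and 129.8 CPM in mutants (log2 fold change -0.40, limma FDR 2.74e-06), and 6 were not called. That count is near the 14.2% of all tested genes called lower on the deposited CPM. After size factors 5 of the 7 were lower and none higher (median -0.27), against 25.1% and 27.0% of all tested genes.

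Ratios of related genes within a library do not depend on the scaling, so 6 pairs were compared with an exact two-sided permutation test (35 arrangements of the genotype labels), adjusted over the 6 pairs. The ratio of the A-type cyclins, Ccna1 to Ccna2, was 12.8, 14.0, 14.1 and 11.69 in wild-type and 11.65, 10.7 and 9.91 in mutant testes. It was lower in mutants by a log2 difference of -0.29 (exact p = 0.057, adjusted 0.086). Ccne1 to Ccne2 was 0.236, 0.243, 0.208 and 0.235 against 0.381, 0.324 and 0.312, a difference of 0.55 (exact p = 0.029, adjusted 0.086). Ccnd2 to Ccnd3 differed by -0.43 (exact p = 0.029, adjusted 0.086) and Cdkn2d to Cdkn1b by -0.50 (exact p = 0.057, adjusted 0.086). In these 4 pairs no mutant ratio overlapped a wild-type ratio, but none passed 0.05 after adjustment, and 0.029 is the smallest p that this design can give. Aurkc to Aurkb (0.13, exact p = 0.43, adjusted 0.51) and Ccnb1 to Ccnb2 (-0.040, exact p = 0.69, adjusted 0.69) overlapped.

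**Figure D4:**
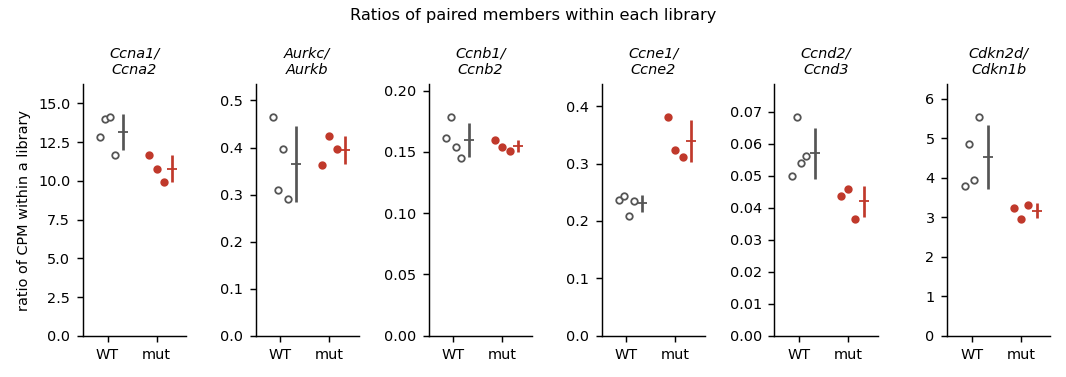
Ratio of the CPM of paired members within each library (open circles, 4 wild-type; filled circles, 3 mutant), with the mean and SD beside each group and a separate axis from 0 for each pair. Ccne1 to Ccne2 is higher, and Ccnd2 to Ccnd3 and Cdkn2d to Cdkn1b are lower, in every mutant.

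The direction of the calls was set against read abundance. This pattern was noticed after the values were seen and is given as a description, in CPM and not per length. Of the 7 members under 10 CPM, 3 were called higher and none lower, with a median log2 fold change of 0.21, and among all tested genes in this range 2182 of 5988 were higher and 552 lower, a share of higher calls close to that of the members. Of the 16 between 10 and 50 CPM, 2 were higher and none lower (median 0.077), against 3002 higher and 574 lower of 6528 genes, a larger share of higher calls than among the members. Of the 17 above 50 CPM, none was higher and 7 were lower (median -0.13), against 1028 higher and 1302 lower of 4610 genes. Spearman's rho between level and log2 fold change was -0.47 over the 40 members, and -0.22 over all 17126 tested genes. All genes showed the same order of medians, at 0.23, 0.21 and -0.047 in the same ranges. The points share the same 7 libraries, so no p-value is given.

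**Figure D5:**
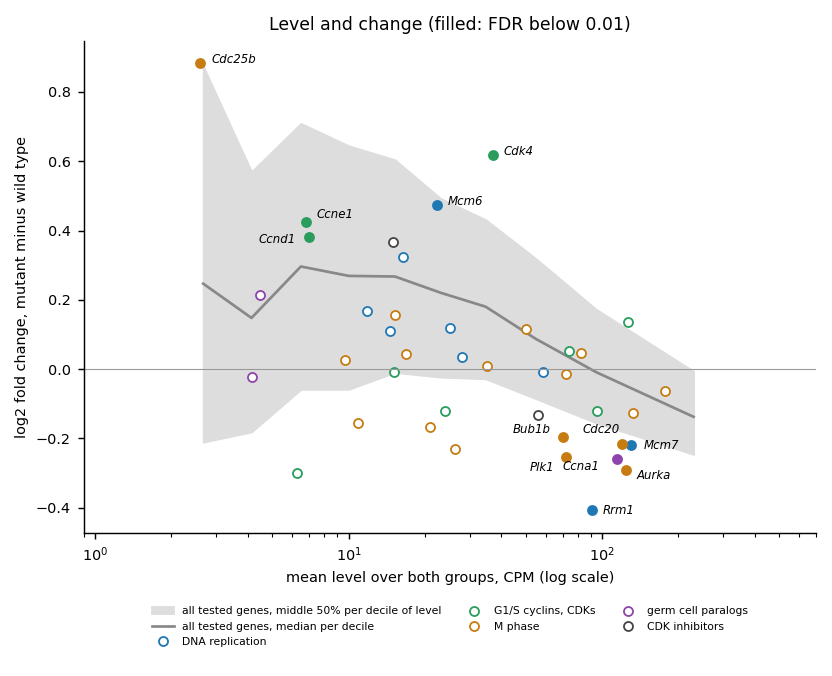
Log2 fold change (mutant against wild type, deposited CPM) of the 40 members against their mean level over both groups in CPM, on a log axis. The grey line and band give the median and the middle 50% of all tested genes per decile of level, and filled circles have an FDR below 0.01. The 5 higher members are under 50 CPM and the 7 lower members are above it.

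Counting could touch some of these values. In GENCODE M39, 24 of the 40 members share exon bases with another gene, and 12 share more than 10% of them, of which Ccnd1, Cks2 (46.1%), Rrm2, Aurka and Cdc25c (31.4%) share most. Mcm6 and Rrm1 share none.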

How the data were processed

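Gene expression was measured by RNA-seq in testes, 4 from wild-type mice and 3 from mutants. The authors trimmed the reads with Trimmomatic, aligned them to GRCm39 with Subread, assigned them to genes with featureCounts, removed genes with few reads and deposited the values as CPM, each gene's share of a library's reads. The strand setting and annotation release are not given in the sources used here. Each deposited column summed to 1000000 over the 17127 genes. Its values were whole multiples (tolerance 0.01) of 1 step, which gave 32859673 to 37551057 reads for wild-type and 32064384 to 34806129 for mutant libraries.

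The 17126 genes that reached 2.2 CPM in at least 2 libraries of a genotype were fitted with limma 3.58.1 (R 4.3.3, eBayes with a trend) on log2(CPM + 0.1), without covariates, and called at a Benjamini-Hochberg FDR below 0.01 over all of them. Fold changes on this scale understate those of genes with low values. The script was tested on simulated data. All 40 members are named, with values in every library, and from each other list the 3 called genes with the largest change in each direction. The members and lists were chosen with earlier results of these data known. Pair ratios were compared with exact permutation tests.

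Alternatives changed the pseudocount (1 or 0.01), the CPM minimum (none or 5), the scaling (median-of-ratios size factors), the model (replicate block) and the libraries (each left out). Coordinates and exon lengths are from GENCODE M39, and promoter letters from RefSeq. Scripts ran under Python 3.11.15 with pandas 2.3.3, SciPy 1.17.1, NumPy 2.4.6 and, for figures, matplotlib 3.10.9. Mutant 3 and Speedya are not analysed here.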

Additional observations from a re-analysis of the deposited data

Results flagged for a closer look

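Among the 40 members, 2 had a wild-type library far from the other three. Cdk2 was at 80.8 CPM in wild type 4, against 69.9 to 71.1 CPM in wild types 1 to 3. Aurkc was at 4.88 CPM in wild type 1, against 3.77 to 3.89 CPM in the other wild types. By Dixon's test at the 95% level, chance flags about 1 in 20 groups of this kind, which 2 of 40 equals. Neither gene was called under any alternative tried.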

How the results depend on the processing

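Pseudocounts of 1 and 0.01 and the absence of a minimum changed the call of none of the 40 members. Size factors left 1 G1/S member higher and 3 lower, 8 M phase members lower, and 3 members higher and 15 lower in all. In the other lists they gave 5 higher and 9 lower replication genes, 1 higher and 19 lower M phase genes, 3 higher RB, E2F and CDK inhibitor genes and 5 lower germ cell cycle regulators. The scaling subtracts a nearly constant amount from every gene. A minimum of 5 CPM removed Cdc25b and left 37 members tested, 3 of them higher, with 0 of 16 M phase members higher, and Ccnd1 missed the threshold (limma FDR 0.0103).

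With the replicate block (libraries 1, 2 and 4, without wild type 3), 1 G1/S member was higher, 2 M phase members were lower, and 3 members were higher in all. In the other lists, 7 replication genes were higher and 3 M phase genes lower. Same-numbered libraries did not deviate together (r = 0.011, 0.00051 and -0.083). The labels do not say whether the number is a pairing, and these correlations cannot exclude one.

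Leaving out each library in turn gave 4 to 5 higher and 5 to 9 lower members in all. By group this was 1 to 2 higher and 2 lower replication, 2 to 3 higher and 0 to 1 lower G1/S, and 1 higher and 2 to 5 lower M phase members. The other lists gave 8 to 12 higher and 2 to 4 lower replication genes, 2 to 4 higher and 3 to 6 lower M phase genes, 3 to 6 higher and 1 to 4 lower RB, E2F and CDK inhibitor genes, and 1 lower germ cell cycle regulator. The 2 higher replication members were found without mutant 4, where Mcm2 joined Mcm6, and the lower G1/S member, Cdc25a, without wild type 4. Pair differences ranged from 0.46 to 0.60 for Ccne1 to Ccne2, from -0.50 to -0.34 for Ccnd2 to Ccnd3, from -0.58 to -0.40 for Cdkn2d to Cdkn1b, from -0.35 to -0.23 for Ccna1 to Ccna2, from 0.033 to 0.25 for Aurkc to Aurkb and from -0.085 to 0.014 for Ccnb1 to Ccnb2. An exact test on 6 libraries cannot reach 0.05 (its smallest p is 0.067 or 0.1), so these are values without a test. Count models on reads recovered from the CPM were planned and not run. Depth limits Cdc25b most, at 51 to 128 reads. The causes of these shifts were not tested.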
